A study of Mus musculus with 6 samples.

Results

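The transcripts of 33 enzymes that make nucleotides or carry one-carbon units were followed in mouse Th9 cells with and without sorafenib. The enzymes were chosen by symbol, from textbook membership of deoxynucleotide, pyrimidine and purine synthesis, nucleotide salvage, and the folate and methionine cycles. All 33 of 33 symbols were found in the gene count table, which holds 21233 genes, and all 33 passed the filter on low counts that kept 13255 genes for testing. Th9 cells are CD4 T helper cells named for secreting interleukin 9, and sorafenib is a small-molecule inhibitor of RAF kinases and of several receptor tyrosine kinases. The data were RNA-seq libraries, 3 titled as control and 3 titled as sorafenib, each of cells labelled Th9. The labels leave out dose, exposure time, mouse strain, sex and age, and the solvent given to the controls. They also do not say whether replicates came from separate cultures or animals. The p-values therefore cover the spread between these 6 libraries alone, which may be technical.

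Dividing T cells must copy their DNA, and for this they build purine and pyrimidine rings on a ribose phosphate donor, phosphoribosyl pyrophosphate, and reduce ribonucleotides to deoxynucleotides. Folate carries the one-carbon units that enter the purine ring and the methyl group of thymidylate, and serine is a main source of these units. Mitochondrial folate enzymes release the units as formate, and cytosolic enzymes take formate up again, while the methionine cycle turns folate-bound methyl groups into the methyl donor S-adenosylmethionine. Activated T cells are known to raise many of these transcripts when they enter the cell cycle, with Myc, E2F, NF-Y and ATF4 among the factors known to act on their promoters.

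Of the 33 enzyme transcripts, 5 rose with sorafenib and 0 fell (edgeR's quasi-likelihood test, adjusted p under 0.05). Those that rose were Tk1 (thymidine kinase of the cytosol), Prps1 (phosphoribosyl pyrophosphate synthetase), Mthfd1 and Mthfd2 (folate interconversion in the cytosol and the mitochondria) and Mtr (methionine synthase). The same test called 8.51% of its 13255 genes higher and 9.43% lower. The rises ranged from 1.29-fold (Mthfd2) to 1.72-fold (Tk1). The count of 5 was 18 without control library 2 and 3 without control library 3 or without any 1 sorafenib library, and other scalings gave 10 (upper-quartile factors), 11 (total counts only) and 12 (FPKM). At an unadjusted p under 0.05, 14 of the 33 enzymes and 4096 of the 13255 genes passed. Fewer cells of a type and less RNA per cell cannot be told apart in bulk libraries such as these.

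The promoters of the 5 enzymes that rose are shown because they are the members that moved. Each is the 250 bases 5′ of the annotated start, read in the gene's direction, from RefSeq on the GRCm38.p6 build. Capitals mark matches, on either strand, to 4 motif sets: E2F (TTTCCCGC, TTTGGCGC or TTTCGCGC), the Myc E-box (CACGTG), the NF-Y box (CCAAT) and an ATF4 site (TGATGCAA). No 2 matches of different motifs overlap in these 5 windows. The Tk1 window is chr11:117826015-117826264 on the minus strand, and that of Prps1 is chrX:140456353-140456602 on the plus strand. Those of Mthfd1, Mthfd2 and Mtr are chr12:76254982-76255231 on the plus strand, chr6:83317605-83317854 on the minus strand and chr13:12258114-12258363 on the minus strand.
Tk1: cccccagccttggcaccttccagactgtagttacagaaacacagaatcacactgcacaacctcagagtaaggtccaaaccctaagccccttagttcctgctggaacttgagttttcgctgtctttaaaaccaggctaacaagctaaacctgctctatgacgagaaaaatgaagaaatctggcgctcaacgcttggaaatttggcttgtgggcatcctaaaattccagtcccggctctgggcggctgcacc
Prps1: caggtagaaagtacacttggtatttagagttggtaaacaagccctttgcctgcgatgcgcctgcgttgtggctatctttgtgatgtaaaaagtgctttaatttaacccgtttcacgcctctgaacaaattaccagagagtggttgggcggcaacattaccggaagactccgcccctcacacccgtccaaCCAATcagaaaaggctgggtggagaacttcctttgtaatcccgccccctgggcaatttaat
Mthfd1: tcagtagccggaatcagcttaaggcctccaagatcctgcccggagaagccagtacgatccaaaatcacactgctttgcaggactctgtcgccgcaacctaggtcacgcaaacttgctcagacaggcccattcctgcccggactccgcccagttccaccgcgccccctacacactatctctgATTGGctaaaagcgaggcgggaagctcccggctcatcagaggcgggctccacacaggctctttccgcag
Mthfd2: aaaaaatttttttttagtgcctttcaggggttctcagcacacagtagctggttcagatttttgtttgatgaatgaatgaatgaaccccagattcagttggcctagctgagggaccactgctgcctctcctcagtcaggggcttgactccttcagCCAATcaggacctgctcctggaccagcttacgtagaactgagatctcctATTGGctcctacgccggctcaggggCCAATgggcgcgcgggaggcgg
Mtr: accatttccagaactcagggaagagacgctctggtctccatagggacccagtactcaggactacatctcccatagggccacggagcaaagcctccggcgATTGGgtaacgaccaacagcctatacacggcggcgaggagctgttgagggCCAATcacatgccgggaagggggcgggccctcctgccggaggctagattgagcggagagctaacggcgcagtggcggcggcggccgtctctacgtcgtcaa

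Every capital in these windows belongs to a CCAAT box or its reverse complement ATTGG. Mthfd2 has 3 such boxes, 96, 47 and 22 bases before the start, and Mtr has 2, at 151 and 101 bases. Prps1 has 1 box at 61 bases, Mthfd1 has 1 at 69 bases, and Tk1 has none in this window. CCAAT was found in 13 of the 31 enzymes with a window (41.9%), beside 40.5% of the 10400 tested genes with a window and 33.8% of all 32851 windows. The E-box was found in 6 of 31 enzymes (19.4%), among them Tyms, Nme1, Paics and Impdh2, beside 9.76% of tested genes and 6.02% of all windows. An E2F match was found in 1 enzyme, Ppat, beside 3.39% of tested genes and 1.53% of windows. The ATF4 site was found in 0 of 31 enzymes, 0.673% of tested genes and 0.791% of windows. A match is only a run of letters. None of the 6 enzymes with an E-box was among the 5 that rose with all libraries. Without control library 2, the same test called Dtymk, Impdh2, Nme1, Paics and Tyms of these higher (adjusted p of 0.0413, 0.0053, 0.00886, 0.00133 and 0.00434). Atic was not called (0.0694). That fit called 18 of the 33 enzymes higher, and a link between motif and change was not tested.

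Totals were 36981476 to 38126521 counts per library, and 3 counts, the limit that a count of 0 allows, corresponded to 0.0766 to 0.0871 CPM (counts scaled to a common library size with TMM factors), for counting error only. Control library 2 stood apart from the other 5: its TMM factor was 0.9218 (0.9926 to 1.033 in the others), and a second principal component with 22.4% of the variance placed it at -38.61 against -5.27 to 18.86. The enzymes are among the genes in which it differed. Control 2 was the highest control library for 24 of the 33 enzymes (72.7%), compared with 41.4% of all genes tested. Its level lay above the mean of the other controls by a median of 0.14 on the log2 scale over the enzymes and 0.01 over all genes, with a range from -0.46 (Pfas) to 0.58 (Nme1). Values of the enzymes and counts of the lists that its absence moves are therefore also given without it. Without control 2, 18 enzymes were called higher and 1, Mat2a, lower. The same fit called 15.0% of its 13591 genes higher and 16.8% lower.

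**Figure D1:**
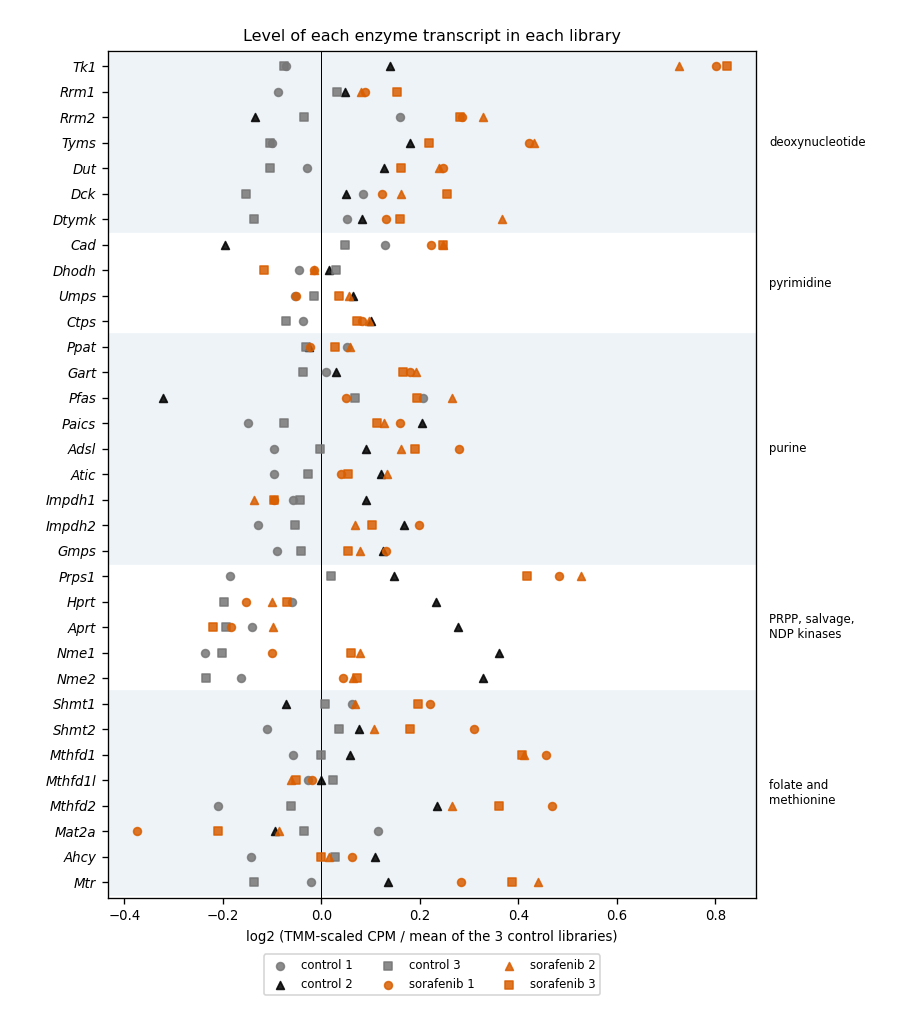
Each point is 1 library, placed on the x axis by the log2 of its TMM-scaled CPM over the mean of the 3 control libraries, for the 33 enzymes grouped by role. The 3 sorafenib points of Tk1 stand furthest to the right, and the black triangle of control 2 lies to the right of the other controls for 24 enzymes.

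All 7 enzymes of deoxynucleotide synthesis had every sorafenib library above every control library. By the test 1 of the 7, Tk1, rose, where 8.51% of all genes did. In TMM-scaled CPM, 16 of the 33 enzymes had every sorafenib library above every control and 1, Impdh1, had the reverse order. Over all genes tested, 18.3% and 18.0% had these orders. The median log2 fold change of the 7 was 0.22, compared with 0.13 over the 33 enzymes and -0.01 over all genes tested. Summed over the 7 genes, the level was 208 to 225 CPM in the controls and 248 to 253 CPM with sorafenib.

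Tk1, which phosphorylates thymidine taken up from outside the cell, was at 7.48, 8.65 and 7.46 CPM in controls 1 to 3 and at 13.7, 13.0 and 13.9 CPM in sorafenib libraries 1 to 3. The groups were far apart, and control 2 was the nearest control. Its log2 fold change was 0.78 ± 0.11 (standard error, adjusted p = 0.000813), or 0.86 without control 2. Tk1 overlaps Afmid, a neighbouring gene, in the annotation, and Afmid was at 13.9 ± 6.13 CPM in controls and 15.1 ± 1.47 CPM with sorafenib (adjusted p = 0.796, SD, n = 3 each).

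The subunits of ribonucleotide reductase, which reduces ribonucleotides to deoxynucleotides, differed less. Rrm2, its cell-cycle-regulated subunit, was at 27.6, 22.5 and 24.1 CPM in controls and 30.1, 31.0 and 30.0 CPM with sorafenib. The sorafenib values were close together and above all controls, control 2 being the lowest. The log2 fold change of 0.29 ± 0.09 missed the threshold (adjusted p = 0.0504), and it passed in 11 of 18 alternative analyses, among them those without control 2 (0.23, adjusted p = 0.0375) and without control 1 (adjusted p = 0.0171). Rrm1, the large subunit, was at 79.0 ± 4.04 CPM in controls and 85.1 ± 2.35 CPM with sorafenib (adjusted p = 0.329).

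Tyms, thymidylate synthase, makes thymidylate with a folate-bound one-carbon unit. Its levels were 9.06, 11.0 and 9.03 CPM in controls and 13.0, 13.1 and 11.3 CPM with sorafenib, so that control 2 and sorafenib 3 lay next to each other. The log2 fold change was 0.36 ± 0.12 (adjusted p = 0.062), and without control 2 it was 0.47 (adjusted p = 0.00434). Dut, which removes dUTP, had 44.5 ± 3.64 CPM in controls and 51.7 ± 1.68 CPM with sorafenib, with an adjusted p of 0.0949 that fell to 0.00291 without control 2. Dtymk, which phosphorylates thymidylate, had 22.1 ± 1.78 and 25.8 ± 2.32 CPM (adjusted p = 0.156, and 0.0413 without control 2). With any other library left out instead, no call was made. The adjusted p was then 0.0946 to 0.199 for Tyms, 0.177 to 0.262 for Dut and 0.178 to 0.425 for Dtymk. Dck, the deoxycytidine kinase of the salvage route, had 27.9 ± 2.43 and 31.6 ± 1.51 CPM, with an adjusted p of 0.197, and 0.0677 without control 2.

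None of the 4 enzymes of pyrimidine ring synthesis was called, and their median log2 fold change was 0.05. Cad, the enzyme of the first steps, was the one member whose groups did not overlap in CPM. As FPKM the groups of Ctps did not overlap either. Cad was at 164, 131 and 155 CPM in controls and 175, 178 and 178 CPM with sorafenib. Control 2 was its lowest library by a wide margin, in contrast to most enzymes. The log2 fold change was 0.24 ± 0.08 (adjusted p = 0.0783) and 0.15 without control 2 (adjusted p = 0.0341). Cad overlaps Atraid, which was at 27.3 ± 6.12 and 26.8 ± 1.06 CPM. The later enzymes lay close in both groups: Umps, which completes uridine monophosphate, had a log2 fold change of 0.01 ± 0.07, and Ctps, which makes CTP from UTP, 0.08 ± 0.08. Dhodh, the mitochondrial step, had -0.05 ± 0.08, a value near 0 whose sign turned to 0.03 when libraries were scaled by total counts alone or as FPKM.

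None of the 9 purine synthesis enzymes passed the test, 8 had a log2 fold change above 0, and the median was 0.13. Gart, a trifunctional enzyme that uses formyl folate, was at 99.6, 101 and 96.4 CPM in controls and 112, 113 and 111 CPM with sorafenib. All 3 sorafenib values exceeded the controls, with a log2 fold change of 0.18 ± 0.06 and an adjusted p of 0.0724, or 0.00993 without control 2. Adsl, which acts at separate steps of the route, had 59.4 ± 3.82 CPM in controls and 68.7 ± 2.99 CPM with sorafenib (adjusted p = 0.0801, and 0.00364 without control 2). With any other library left out instead, the adjusted p was 0.101 to 0.225 for Gart and 0.125 to 0.275 for Adsl. In TMM-scaled CPM, Gart and Adsl were the only purine enzymes with every sorafenib library above every control. As FPKM, Paics, Impdh2, Gmps and Atic had this order too.

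Paics, which carries out a middle pair of steps, was called only when control 2 was left out. It was at 231, 295 and 243 CPM in controls and at 286, 279.7 and 277 CPM with sorafenib. In CPM control 2 was the highest of all 6 libraries, but as FPKM it was at 109, below the 114 to 117 with sorafenib. The log2 fold change of Paics was 0.13 ± 0.09 (adjusted p = 0.375) with all libraries and 0.25 (adjusted p = 0.00133) without control 2. Impdh2, the main inosine monophosphate dehydrogenase of dividing lymphocytes, had 245 ± 26.9 and 267 ± 12.5 CPM, and Gmps, the next enzyme on the guanine branch, 73.9 ± 5.94 and 78.5 ± 2.13 CPM. Both had adjusted p-values above the threshold (0.37 and 0.485) that passed it without control 2 (0.0053 and 0.0491). Ppat, the committing amidotransferase, differed little, with 51.1 ± 1.68 and 51.9 ± 1.47 CPM. Pfas had 48.0 ± 8.76 and 54.1 ± 4.06 CPM, its control SD set by 38.4 CPM in control 2, and Atic, the last enzyme before inosine monophosphate, had 156 ± 12.1 and 164 ± 5.61 CPM (adjusted p of 0.388 and 0.573). Impdh1, the second dehydrogenase, was at 149, 165 and 150.4 CPM in controls and 145, 141 and 145 CPM with sorafenib (adjusted p = 0.319). It was the one enzyme with every sorafenib library below every control in CPM. As FPKM, control 3 and sorafenib 3 were both at 51.7.

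Of the 5 genes for phosphoribosyl pyrophosphate supply, salvage and nucleoside diphosphate kinases, 1 rose and 0 fell, where 8.51% and 9.43% of all genes did. Their median log2 fold change was 0.02. The gene that rose was Prps1, which makes the ribose phosphate donor used in purine and pyrimidine synthesis and in the salvage of free bases. It was at 75.7, 95.3 and 87.3 CPM in controls and at 120.3, 124 and 115 CPM with sorafenib, with no overlap. The log2 fold change was 0.48 ± 0.09 (1.39-fold, adjusted p = 0.00397), and 0.56 without control 2. The 2 enzymes that spend this donor on free bases had values below 0 in the log2 comparison. Hprt, which salvages hypoxanthine and guanine, had 148 ± 23.3 CPM in controls and 137 ± 4.23 CPM with sorafenib (adjusted p = 0.503), and Aprt, which salvages adenine, had 151 ± 28.5 and 134 ± 5.65 CPM (adjusted p = 0.378). Control 2 held the highest level of both, and without it the log2 fold changes were 0.02 and 0.0049.

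Nme1 and Nme2 encode nucleoside diphosphate kinases, which make triphosphates from diphosphates, and are close paralogs whose reads may be split between them. Nme2 was at 293, 412 and 279 CPM in controls and 338, 343 and 345 CPM with sorafenib. Nme1 was at 68.1, 103 and 69.7 CPM in controls and 74.8, 84.7 and 83.6 CPM with sorafenib. For both, control 2 was the highest and the other controls the lowest of the 6 libraries. The log2 fold changes were 0.06 ± 0.13 and 0.02 ± 0.14 with all libraries, and 0.26 (adjusted p = 0.000845) and 0.24 (adjusted p = 0.00886) without control 2. Summing the counts of the pair gave 0.05 (adjusted p = 0.837).

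**Figure D2:**
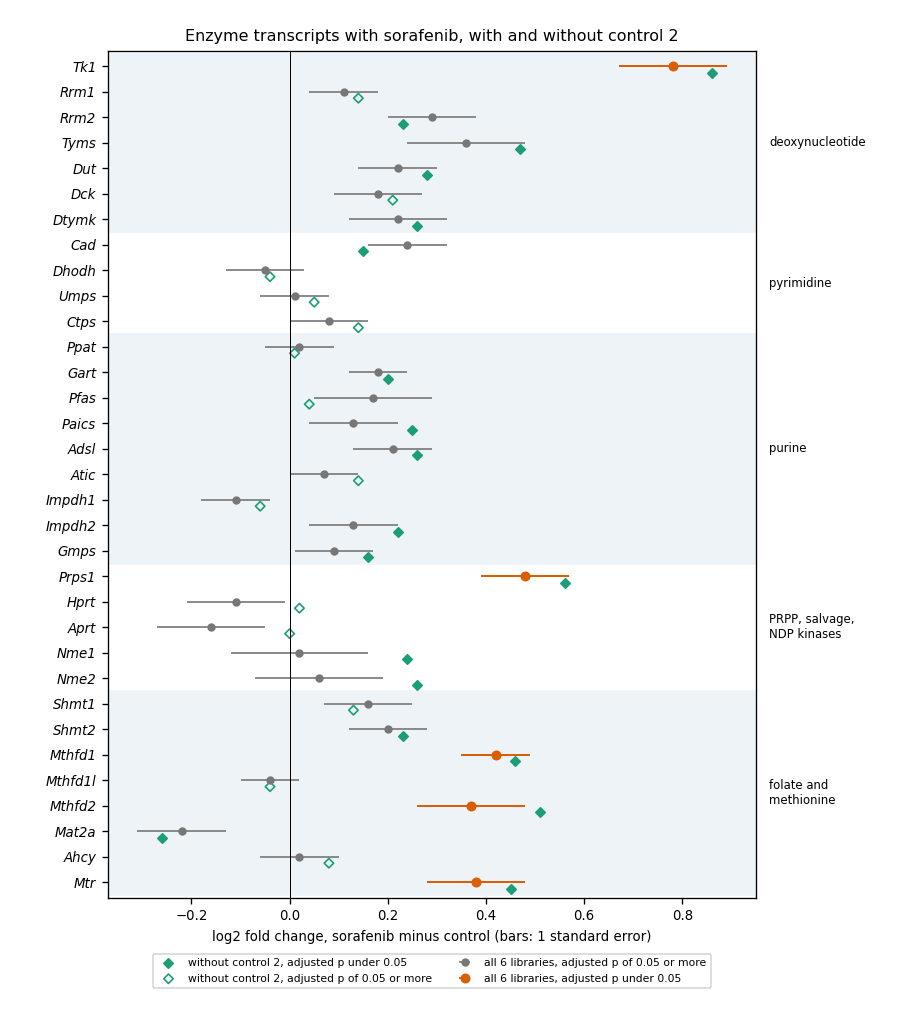
The x axis is the log2 fold change, sorafenib minus control, for each enzyme: circles with 1 standard error for all 6 libraries and diamonds for the fit without control 2. Orange circles mark the 5 enzymes called with all libraries, and filled diamonds the 19 called without control 2, of which Mat2a alone lies below 0.

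Of the 8 folate and methionine cycle enzymes, 3 rose and 0 fell, where 8.51% and 9.43% of all genes did. Their median log2 fold change was 0.18. Mthfd1, the trifunctional cytosolic enzyme that captures formate and supplies formyl folate, was at 54.2, 58.7 and 56.4 CPM in controls and 77.4, 75.0 and 74.8 CPM with sorafenib. The groups were tight and well apart, and control 2 differed little from the other controls. Mthfd1 rose 1.34-fold, by 0.42 ± 0.07 on the log2 scale (adjusted p = 0.00178), and by 0.46 without control 2.

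Mthfd2, the mitochondrial dehydrogenase and cyclohydrolase known to be low in most resting adult cells and high in activated lymphocytes, was at 138, 188 and 153 CPM in controls and 221, 192 and 205 CPM with sorafenib. Control 2 reached nearly to the lowest sorafenib library. The log2 fold change was 0.37 ± 0.11 (adjusted p = 0.0394) and 0.51 (adjusted p = 6.51e-06) without control 2. The call was lost without control 1 (0.102), control 3 (0.124), sorafenib 1 (0.175), sorafenib 2 (0.0594) or sorafenib 3 (0.128), the adjusted p being given for each. Mtr, which remakes methionine from homocysteine and methyl folate, was at 14.1, 15.7 and 13.0 CPM in controls and 17.4, 19.4 and 18.7 CPM with sorafenib. Mthfd1 and Mtr each overlap annotated noncoding genes, with which reads may be shared. Mtr rose 1.3-fold (log2 fold change 0.38 ± 0.10, adjusted p = 0.0271, and 0.45 without control 2). Its call was lost without the same 5 libraries in turn, at adjusted p-values of 0.0644, 0.1, 0.0583, 0.1 and 0.112 in the order given for Mthfd2, and in 1 analysis of unfiltered FPKM values (0.0674).

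The serine hydroxymethyltransferases, which move a carbon from serine to folate, were not called. Shmt2, the mitochondrial form, was at 189, 215 and 209 CPM in controls and 253, 219.6 and 231 CPM with sorafenib, with control 2 just under sorafenib 2. Its log2 fold change was 0.20 ± 0.08 (adjusted p = 0.118), and 0.23 without control 2 (adjusted p = 0.00822). With any other library left out instead, the adjusted p was 0.118 to 0.388. Shmt1, the cytosolic form, had 20.7 ± 0.991 CPM in controls and 23.1 ± 1.29 CPM with sorafenib (adjusted p = 0.241). Mthfd1l, the mitochondrial enzyme that releases formate, lay between 301 and 319 CPM in all 6 libraries, with a log2 fold change of -0.04 ± 0.06 that became 0.03 with total-count scaling or FPKM.

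The methyl-donor enzymes other than Mtr did not rise. Mat2a, which makes S-adenosylmethionine, was at 223, 193 and 201 CPM in controls and 159, 194 and 178 CPM with sorafenib, control 2 lying just below sorafenib 2. The log2 fold change was -0.22 ± 0.09 (adjusted p = 0.122), and without control 2 it fell by 0.26 (adjusted p = 0.0179), the lone lower call in any of the alternatives. Mat2a overlaps Ggcx in the annotation, which was at 8.43 ± 1.95 and 9.86 ± 0.831 CPM. Ahcy, which clears S-adenosylhomocysteine, had 158 ± 13.8 and 161 ± 3.46 CPM (adjusted p = 0.876).

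The 33 enzymes spanned a wide range of levels per gene length, read here as FPKM, the authors' deposited unit. Nme2 was highest at 272 ± 46.7 FPKM in controls and 300.5 ± 4.67 FPKM with sorafenib, followed by Aprt (168 ± 23.5 in controls), Impdh2 (134 ± 8.05), Hprt (107 ± 12.1) and Paics (99.8 ± 8.27). Hprt and Paics, and likewise Impdh1 (52.1 ± 0.446) and Nme1 (56.1 ± 10.8), did not differ beyond their spread. Mtr (1.42 ± 0.0844 FPKM), Tyms (1.59 ± 0.11) and Tk1 (4.05 ± 0.158) were lowest in controls. The lengths behind the table reach 9769 bases for Mtr and 5937 bases for Tyms, so a low FPKM can also come from the length assigned to a gene. The enzymes that rose lay throughout this order: Mthfd2 was at rank 8, Prps1 at rank 14, Mthfd1 at rank 22, Tk1 at rank 31 and Mtr at rank 33.

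**Figure D3:**
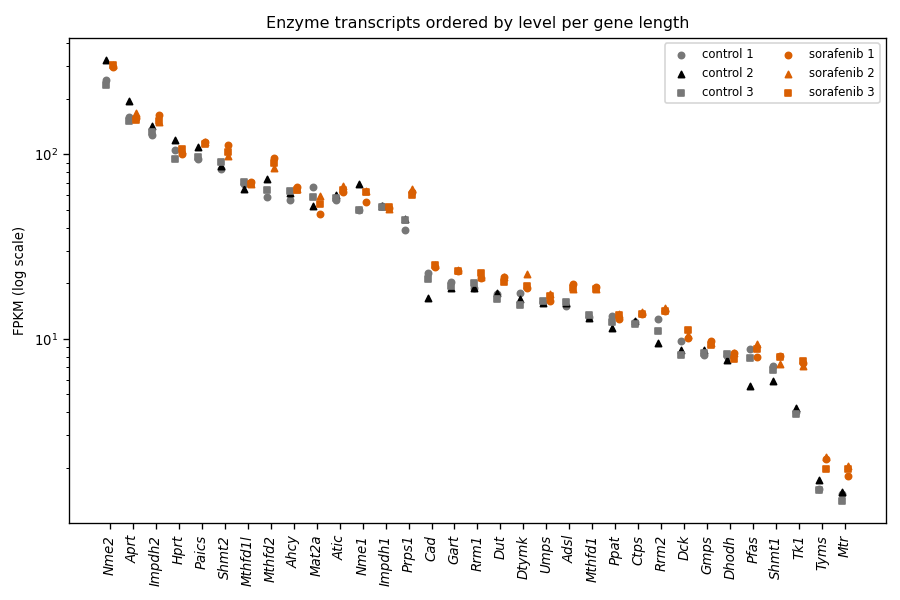
Enzymes are ordered on the x axis by mean control level, and each point is 1 library's FPKM on a log y axis, with controls to the left and sorafenib libraries to the right of each position. Levels run from 272 FPKM (Nme2) to 1.42 FPKM (Mtr) in controls, and the orange points separate from the grey and black ones most at Tk1.

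Ratios of paired enzymes within a library do not depend on how libraries are scaled, and 13 pairs were compared with an exact two-sided permutation test over 20 arrangements, which cannot go below p = 0.1. The groups did not overlap for 5 pairs, each with an exact p = 0.1 (adjusted over the 13 pairs, p = 0.26). The mitochondrial formate-releasing enzyme against the cytosolic formate-capturing enzyme, Mthfd1l to Mthfd1, was 5.26, 4.95 and 5.22 in controls and 3.7, 3.71 and 3.74 with sorafenib. The sorafenib ratios were nearly equal to each other, and the mean was 0.723 times that of the controls. Tk1 to Tk2, its mitochondrial counterpart, was 0.362, 0.47 and 0.378 in controls and 0.773, 0.673 and 0.758 with sorafenib, a 1.83-fold higher mean. Tk1 to Dck was 0.459 ± 0.0428 and 0.694 ± 0.0306. Impdh2 to Impdh1 was 2.45, 2.72 and 2.55 in controls and 3.16, 2.97 and 2.95 with sorafenib. Ctps to Ctps2 was 1.76 ± 0.0392 and 2.01 ± 0.131.

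Other pairs overlapped. The mitochondrial to cytosolic ratio of the dehydrogenases, Mthfd2 to Mthfd1, was 4.47, 5.63 and 4.75 in controls and 5.01, 4.5 and 4.81 with sorafenib (exact p = 0.9). That of the serine enzymes, Shmt2 to Shmt1, was 13.2 ± 1.45 and 13.4 ± 0.502 (exact permutation p = 0.8). For both of these pairs the sorafenib libraries lay within the range of the controls. The 2 synthetases of the ribose donor, Prps1 to Prps2, stood at 6.43 ± 0.591 and 7.11 ± 0.51 (exact permutation p = 0.2), and the subunits of ribonucleotide reductase, Rrm2 to Rrm1, at 0.577 ± 0.0926 and 0.654 ± 0.0263 (exact permutation p = 0.4). Nme1 to Nme2 was 0.197, 0.211 and 0.211 in controls and 0.187, 0.209 and 0.205 with sorafenib, so that control 2, high for each kinase alone, did not stand apart in their ratio. The remaining 3 pairs, Rrm2 to Rrm2b, Mthfd2 to Mthfd2l and Mat2a to Mat2b, had exact permutation p-values of 0.6, 0.5 and 0.5.

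**Figure D4:**
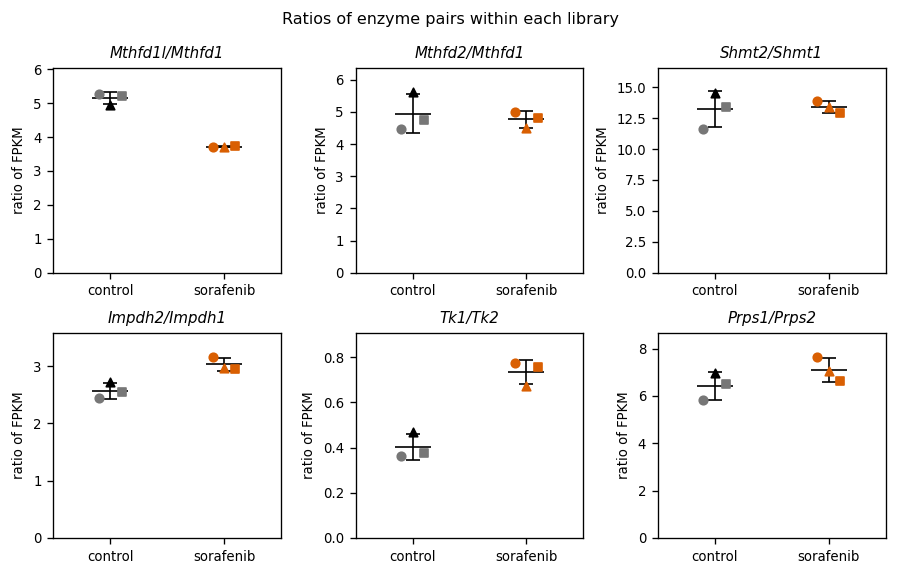
Each panel plots 1 pair of enzymes: the y axis is the ratio of their FPKM in a library, the points are the 3 libraries of each group, and bars give the mean and 1 SD. Mthfd1l to Mthfd1 is below all controls and Tk1 to Tk2 above all controls in the 3 sorafenib libraries, while Mthfd2 to Mthfd1 and Shmt2 to Shmt1 overlap.

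Around the 33 enzymes, 117 further symbols of the same pathways were examined, of which 108 were in the table and 99 were tested. Of these 99, 12 rose and 6 fell, with a median log2 fold change of 0.06, beside the 8.51% and 9.43% of all genes. Without control 2, 26 were higher and 7 lower, with a median of 0.16, beside 15.0% and 16.8% of all genes. Among 12 other deoxynucleotide genes, 1 rose and 1 fell (2 and 1 without control 2). Samhd1, the triphosphohydrolase that degrades deoxynucleotides, was at 243, 216 and 240.4 CPM in controls and 119, 133 and 130.0 CPM with sorafenib. All 3 sorafenib libraries were far below the controls, and Samhd1 fell 1.83-fold (adjusted p = 4.54e-05). Dctd, which deaminates dCMP toward thymidylate, rose from 16.3 ± 0.385 to 19.9 ± 0.707 CPM (adjusted p = 0.0405).

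Among 23 other ribonucleotide genes, 3 rose and 1 fell (6 and 2 without control 2). Upp1, uridine phosphorylase, which breaks uridine down to uracil, fell 2-fold from 25.3 ± 4.47 to 12.6 ± 1.45 CPM (adjusted p = 0.000745). Ak1, a cytosolic adenylate kinase, rose 2.47-fold from the low level of 2.03 ± 0.561 CPM (adjusted p = 0.00206). Prps2 rose 1.27-fold and Prpsap2, a protein that binds the synthetase, rose 1.31-fold (adjusted p of 0.00827 and 0.0121). Prps1 and Prps2 were thus both higher. Prps1l3, a Prps1-like gene of the same list, had 52.5 ± 4.21 CPM in controls and 46.5 ± 2.75 CPM with sorafenib (adjusted p = 0.191). Of 14 purine salvage and breakdown genes, Ampd2, an AMP deaminase, rose 1.23-fold and 0 fell (adjusted p = 0.0162), and without control 2, 2 were higher.

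Serine supply was the list with the largest share of calls among these 7, with a median of 0.37. Of its 10 genes 4 rose and 1 fell, beside 8.51% and 9.43% of all genes. Without control 2, 6 were higher and 1 lower, beside 15.0% and 16.8% of all genes. The first enzyme of serine synthesis, Phgdh, was at 154, 211 and 167 CPM in controls and 318, 279 and 304 CPM with sorafenib, with no overlap (1.7-fold, adjusted p = 0.00106). Psat1 and Psph, the second and the third enzyme, rose 1.29-fold and 1.35-fold (adjusted p of 0.0311 and 0.0261). Slc1a4, a carrier of neutral amino acids including serine, rose 1.52-fold (adjusted p = 0.00187). Gcat, which breaks down threonine-derived carbon to glycine, fell 1.32-fold from 15.3 ± 1.55 CPM (adjusted p = 0.0262).

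Of 13 other folate genes, 1 rose and 2 fell with all libraries, and 4 were higher and 2 lower without control 2. Log2 fold changes were above 0 for 8 of the 13 with all libraries. The median over the 13 was 0.16 with all libraries and 0.18 without control 2. Aldh1l2, the mitochondrial enzyme that oxidises formyl folate to carbon dioxide, was at 12.0, 10.8 and 12.8 CPM in controls and 28.0, 19.9 and 25.1 CPM with sorafenib, a 2.05-fold rise (adjusted p = 0.000477). Izumo1r, of the folate receptor family, fell 1.46-fold from 279 ± 8.93 CPM (adjusted p = 0.000614), and Fpgs, which adds the glutamate tail that keeps folate in cells, fell 1.22-fold (adjusted p = 0.0308). Among 19 methionine, polyamine and transsulfuration genes, 2 rose and 0 fell (5 and 0 without control 2). Cth, which forms cysteine from cystathionine, was at 9.33, 15.4 and 11.6 CPM in controls and 32.9, 24.5 and 28.2 CPM with sorafenib (2.36-fold, adjusted p = 0.000813), and Adi1, of the methionine salvage route, rose 1.5-fold (adjusted p = 0.00127). Of 8 pentose phosphate genes, Pgd, which yields the ribose precursor ribulose 5-phosphate, fell 1.23-fold from 159 ± 9.92 CPM (adjusted p = 0.0134), and 0 rose (1 lower and 1 higher without control 2).

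Of these 18 called genes, 9 kept their call in 18 of 18 alternatives: Samhd1, Upp1, Ak1, Phgdh, Slc1a4, Aldh1l2, Izumo1r, Cth and Adi1. The other 9 lost it in at least 1, under left-out libraries and, for some, under another scaling, filter or unit. All 9 lost it without sorafenib 3 (adjusted p of 0.0639 to 0.139). Without sorafenib 1, 8 of them lost it (0.0508 to 0.154), without sorafenib 2, 6 (0.0531 to 0.122), without control 1, 4 (0.0621 to 0.082), and without control 3, 4 (0.084 to 0.115). Dctd, Fpgs and Gcat kept the call in 11, 8 and 10 of 18. Fpgs and Gcat also lost it with total counts only (0.0848 and 0.0614) and in the 3 FPKM analyses, Fpgs with upper-quartile factors (0.0511), and Dctd without a filter (0.0671).

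**Figure D5:**
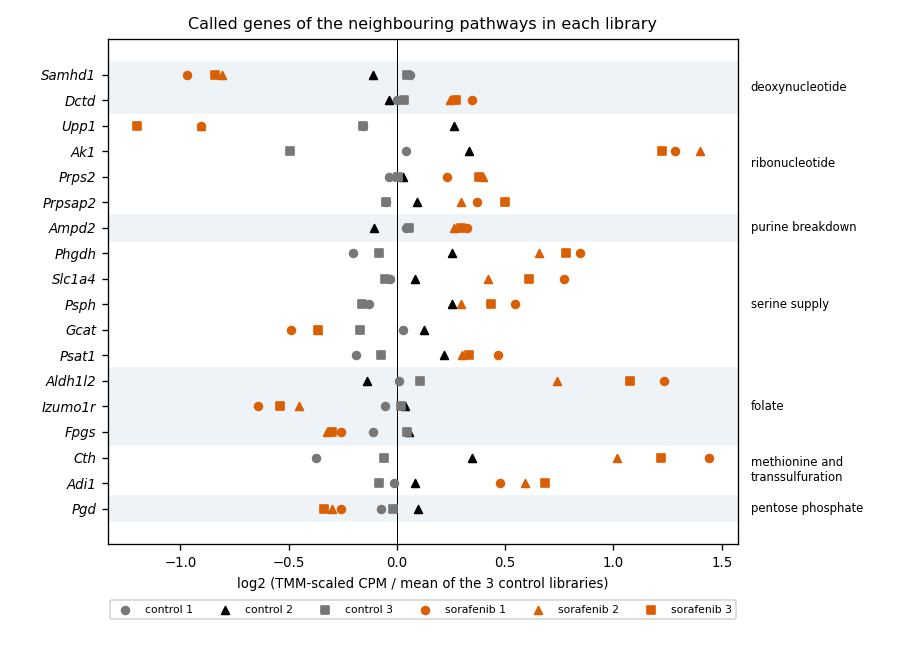
The 18 called genes of the neighbouring pathways are shown by library on the x axis, as the log2 of TMM-scaled CPM over the mean of the 3 controls. Samhd1 and Upp1 lie far to the left in all 3 sorafenib libraries, Aldh1l2, Cth and Ak1 far to the right, and control 2 lies nearest to sorafenib among the controls for Phgdh, Psph, Psat1 and Cth.

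Transcripts that mark cell division and amino acid stress were read in the same libraries. Of 32 DNA replication genes, 4 rose and 1 fell with a median log2 fold change of 0.15, where 8.51% and 9.43% of all genes did. Without control 2, 11 of the 32 were higher and 1 lower, beside 15.0% and 16.8% of all genes. Rfc4, Cdc45 and Lig1 rose 1.55-fold, 1.36-fold and 1.27-fold (adjusted p of 0.00257, 0.00929 and 0.0146). Of 25 mitosis genes, 14 rose and 0 fell with a median of 0.41, Cdca8, Ube2c and Ccnb1 among those that rose. Without control 2, 15 of the 25 were higher and 0 lower, with a median of 0.30. Of 15 ATF4 targets outside the enzymes, 8 rose and 2 fell, Sesn2 and Atf5 rising 1.64-fold and 1.48-fold and Stc2 falling 1.33-fold (adjusted p of 0.000216, 0.0038 and 0.00289). Without control 2, 10 of the 15 ATF4 targets were higher and 2 lower. The part of these programmes in the enzyme values was not tested.

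Among 14 transcription factors known to act on these genes, 1 rose and 1 fell, where 8.51% and 9.43% of all genes did. Mycn fell 6.1-fold, from 4.32, 4.36 and 4.88 CPM to 0.618, 0.522 and 1.07 CPM (adjusted p = 0.000138), while Myc had 302 ± 35.1 CPM in controls and 261 ± 32.3 CPM with sorafenib (adjusted p = 0.212). E2f2 rose 1.34-fold (adjusted p = 0.0356). Atf4 transcript was 604 ± 65.2 CPM in controls and 603 ± 34.2 CPM with sorafenib (adjusted p = 0.988).

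The T cell label was matched by its markers: 7 of 8 listed T cell genes were measured, summing to 2196 to 2221 CPM in controls and 1843 to 1915 CPM with sorafenib, with Cd3e, Cd3g, Lck and Cd2 lower (adjusted p of 0.0129, 0.00437, 0.0451 and 0.000359). Il9, the defining cytokine transcript of the Th9 label, was at 177 to 213 CPM in controls and 253 to 283 CPM with sorafenib. Of the 7 Th9 markers 3 rose (Il9, Gata3 and Tgfbr2) and Il4ra fell (log2 fold change -0.40, adjusted p = 0.00637). Beside this and the other marker lists, the test called 8.51% of all genes higher and 9.43% lower. Irf4, below all controls with sorafenib, had -0.22 (adjusted p = 0.153), and Batf and Spi1 were not called; without control 2 Irf4 passed as lower and Batf as higher (adjusted p of 0.000236 and 0.00383). The 7 summed to 2858 to 3125 CPM in controls and 2734 to 2775 CPM with sorafenib. Of 7 B cell markers, 6 of 6 tested rose, and their sum was 7.64 to 16.4 CPM in controls and 30.0 to 32.6 CPM with sorafenib. Ms4a1, a defining B cell marker, was under the limit of 3 counts in both groups (0.00968 and 0.043 CPM). Of the tested markers of other cells, 2 of 3 dendritic cell genes rose, 1 of 3 for CD8 and NK cells rose and 1 fell, 1 of 2 for granulocytes and mast cells fell, and 0 of 2 for macrophages moved. The dendritic cell sum was 3.25 to 4.68 CPM in controls and 7.82 to 10.3 CPM with sorafenib. Erythroid genes summed to at most 0.469 CPM. The 33 enzymes summed to 3762 to 3801 CPM with sorafenib and to 3380.5, 3856 and 3416 CPM in controls 1 to 3. In CPM control 2 was the highest of all 6. As FPKM, without TMM factors, the sums were 1499, 1665 and 1481 in controls 1 to 3 and 1710.0 to 1731 with sorafenib. In that unit control 2 lay below every sorafenib library. The part of other cells in the enzyme values was not tested.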

How the data were processed

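RNA was profiled in 3 control and 3 sorafenib libraries of mouse Th9 cells, grouped by title. Libraries were made from TRIzol-extracted total RNA with a VAHTS Universal V5 kit, per the labels' protocols. The authors deposited 1 table of whole-number gene counts and 1 of FPKM. The GRCm39 build, HISAT2, fastp, HTSeq, DESeq2 and R 3.2.0 are named in the submitters' processing notes. What each tool did, the strand setting and the handling of multi-mapping reads were not given in the sources used here. In the reference annotation 13 of the 33 enzymes overlap another gene, so their values are uncertain, as are those of close paralogs. The deposited FPKM equalled count over column total and gene length (largest relative spread of the implied length across libraries 5.3e-06).

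Counts were filtered with filterByExpr (13255 of 21233 genes kept), scaled with TMM and tested with edgeR 4.0.16 in R 4.3.3 (robust quasi-likelihood F test, no term besides group, 4 residual degrees of freedom, common biological coefficient of variation 10.9%). Benjamini-Hochberg adjustment ran over the 13255 genes, with a threshold of 0.05. A standard error is the log2 fold change over the root of F. Fold changes are sorafenib over control, and CPM are TMM-scaled. The test was tried on simulated counts with larger changes than most enzymes had and no outlying library. That trial therefore does not measure its power for these enzymes. Replicates differed beyond sampling noise in every pair, so none was merged.

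The 33 enzymes, the other gene lists and the tests were chosen with earlier results of these data known. The text names all 33 enzymes, up to 6 called genes of each neighbouring pathway, up to 3 of each context list, and marker genes. Myc, Atf4, Prps1l3, overlapping genes and the partners in the ratio pairs (Tk2, Rrm2b, Ctps2, Mthfd2l and Mat2b) were named beyond this rule. The alternatives tried were scaling by total counts only, by upper-quartile factors or by DESeq2 size factors, no filter, CPM of at least 1 in 3 libraries, a replicate block, removal of the gene length trend, leaving out each library, limma-voom (limma 3.58.1), DESeq2 1.42.0, limma-trend on log2(FPKM + 1) with a mean FPKM of at least 0.5 or unfiltered and on log2(FPKM + 0.1), and a threshold of 0.01. Promoter windows came from RefSeq tables of GRCm38.p6, which gave one for 31 of the 33 enzymes.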

Additional observations from a re-analysis of the deposited data

How the results depend on the processing

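Depth was even across libraries and every enzyme was above the limit of 3 counts. The number of calls moved with the scaling and with which library was left out. Tk1, Prps1 and Mthfd1 were called in 18 of 18 alternatives, 14 enzymes in none. Over all genes, 1128 rose and 1250 fell, so that 47.4% of calls were higher, and scaling moved this split: 64.4% with total counts only, and 65.3%, 63.5% and 65.1% with log2(FPKM + 1), the same unfiltered, and log2(FPKM + 0.1). The count of genes that fell became 826 with total counts only, 744, 520 and 737 with those FPKM analyses, and at a threshold of 0.01, 551 rose and 676 fell. Leaving out 1 library at a time gave 559 to 2035 genes that rose and 684 to 2290 that fell, the highest both times without control 2. The count of enzymes that rose was 5 of 33, where 8.51% of all genes rose. It became 10 with upper-quartile factors (10.3% of all genes), 11 with total counts only (11.3%) and 8 without a filter (5.86%). It was 11 with the length trend removed (11.4%), 8 with DESeq2 (9.71%) and 5 with DESeq2 size factors (8.54%). With log2(FPKM + 1) it was 12 (12.7%), with the same unfiltered 7 (4.25%), and with log2(FPKM + 0.1) 12 (12.5%). At a threshold of 0.01 it was 3. It was 3 to 18 with 1 library left out (18 without control 2), and the count that fell was 0 to 1. The causes of these changes were not tested.

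Signs turned for the following enzymes and ratios, none of them called with all libraries. Dhodh and Mthfd1l turned to 0.03 each with total counts only and with the 3 FPKM analyses. With 1 library left out, the log2 fold change ranged from -0.01 to 0.05 for Umps, -0.20 to 0.02 for Hprt, -0.24 to 0.0049 for Aprt, -0.09 to 0.24 for Nme1, -0.03 to 0.26 for Nme2 and -0.05 to 0.08 for Ahcy. The log2 difference in ratio ranged from -0.03 to 0.33 for Rrm2 to Rrm2b, -0.05 to 0.11 for Shmt2 to Shmt1, -0.12 to 0.05 for Mthfd2 to Mthfd1 and -0.08 to 0.01 for Nme1 to Nme2. The labels do not say whether replicate numbers pair the libraries. Deviations of same-numbered libraries correlated at -0.0627, 0.152 and 0.102, which cannot settle whether they shared a culture or day. With the replicate block 1031 genes rose and 1108 fell, and 5 enzymes rose and 0 fell, while Dctd and Fpgs lost their call (adjusted p of 0.0844 and 0.0636).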
